A study of Mus musculus with 6 samples.

Results

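The transcription factors Trp63, Pitx1, Tbx1, Foxi3, Isl1, Sp6, Bcl11b and Satb1, which specify the dental epithelium and its enamel-forming cells, the ameloblasts, were followed. They were chosen by name for their known role in this lineage, and all 8 were found among the 24959 genes of the count table. The comparison was between 3 Pkm cKO libraries, titled cKO with the genotype PKM knockout, and 3 control libraries with the genotype WT. All came from cells labelled dental epithelial at postnatal day 0 in the mouse. Pkm encodes the M-type pyruvate kinases of the last step of glycolysis. The sources used here do not give the Cre driver, the deleted exons, the strain, or whether animals were pooled. The question followed was whether the factors that give these cells their identity stood at other levels when Pkm was deleted.

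The tooth epithelium starts as a thickening of the oral lining that expresses Pitx1 and Trp63, and it signals to the mesenchyme beneath. Later its inner layer stops dividing, polarizes and secretes enamel proteins. Factors such as Sp6, Bcl11b, Tbx1 and Satb1 are needed at that later step in mice, whereas Trp63, Pitx1, Foxi3 and Isl1 act from the earliest stages.

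Total counts were 30588350 to 39085792 in the Pkm cKO libraries and 38130829 to 39415700 in the controls. Levels are given as CPM, a gene's share of the reads of a library, scaled to a common total after TMM normalization. Pkm itself stood at 309, 395 and 350 CPM in Pkm cKO replicates 1 to 3, against 1281, 1185 and 1049 CPM in control replicates 1 to 3, and it fell (log2 fold change -1.74 with an SE of 0.159, edgeR quasi-likelihood adjusted p 0.0109). The adjusted p of Pkm was 0.0600 to 0.0792 when any 1 control was left out. Pkm cKO replicate 3 stood apart from the other libraries. Its markers of cornified oral or skin epithelium summed to 5065 CPM, against 58.6 and 93.8 CPM in the other Pkm cKO libraries and 85.1 to 109.6 CPM in controls. Its skeletal muscle markers summed to 2054 CPM, against 65.2 and 15.2 CPM in the other Pkm cKO libraries and 2.12 to 4.06 CPM in controls. Results are therefore also given without that library.

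The sample label was checked against 18 epithelial markers, which were abundant as a sum in both groups. Their sum was 11092 to 13549 CPM in Pkm cKO libraries and 15040 to 17151 CPM in controls, so the groups did not overlap. Krt5, Krt14 and Krt17, keratins of basal and dental epithelium, were the 3 most abundant and made up most of that sum. Krt5 stood at 5216 ± 527 CPM in Pkm cKO and 7018 ± 607 CPM in controls (SD, n = 3 each). Of the 18 markers, 11 had log2 fold changes below 0 and 7 above, with a median of only -0.05. Lower in Pkm cKO with no overlap were 4 of the 18, against 12.2% of all tested genes. By edgeR 0 of the 18 passed an adjusted p of 0.05. At an unadjusted p under 0.05 there were 5, against 17.5% of all tested genes. The enamel matrix markers, 7 genes led by Amelx, Enam and Ambn, summed to 5553, 719 and 356 CPM in Pkm cKO replicates 1 to 3, and to 25236, 22048 and 10705 CPM in control replicates 1 to 3. For each of the 7 the log2 fold change was below 0 with no overlap between the groups, and 1 of them, Odam, passed the threshold. Among all tested genes 12.2% were lower in Pkm cKO with no overlap, and 0.207% passed and were lower. Markers of dental mesenchyme and fibroblasts, led by Col1a1, Col1a2 and Col3a1, summed to 18061 to 39687 CPM in Pkm cKO and to 19526 to 31233 CPM in controls. Most of that sum was Col1a1 and Col1a2, with log2 fold changes of -0.09 and -0.14. In each of the 6 libraries the mesenchymal sum was above the epithelial sum. Of the 16 mesenchymal markers, 14 had log2 fold changes above 0 (median 0.74), and 9 were higher in Pkm cKO with no overlap between the groups, against 11.2% of all tested genes. By edgeR 0 of the 16 passed, with 10 at an unadjusted p under 0.05, against 17.5% of all tested genes. With Pkm cKO replicate 3 left out, all 16 were above 0 (median 0.57) and 1, Col3a1, passed, against 0.77% of all tested genes. The part of these cells in the levels of the 8 factors was not tested. The 10 macrophage markers, led by Csf1r, Laptm5 and Cd68, summed to 123 to 207 CPM in Pkm cKO and to 66.1 to 72.8 CPM in controls. By edgeR 1 of them, C1qc, passed, against 0.345% of all tested genes that passed and were higher. All 10 had log2 fold changes above 0 (median 1.32), and 8 were higher with no overlap, against 11.2% of all tested genes. At an unadjusted p under 0.05 there were 8, against 17.5%. Without Pkm cKO replicate 3, all 10 were above 0 (median 1.30). Their part in the levels of the 8 factors was not tested. In bulk RNA, fewer cells of a type and less RNA per cell cannot be told apart.

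**Figure D1:**
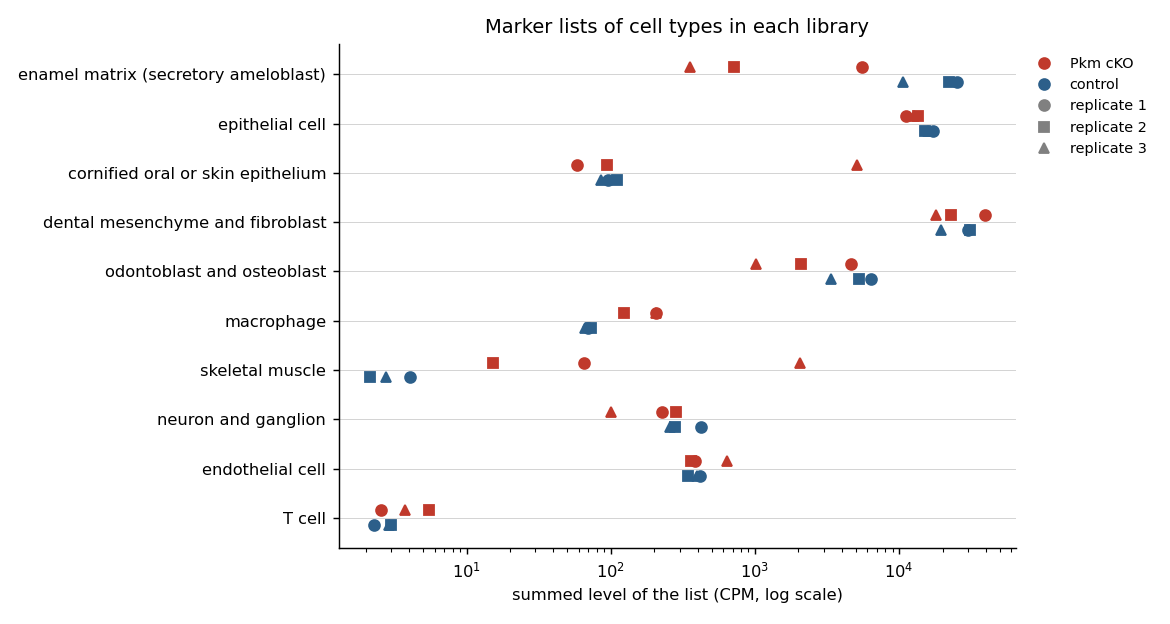
Summed CPM (log axis) of the marker lists of 10 cell types in each of the 3 Pkm cKO (red) and 3 control (blue) libraries, with 1 symbol per replicate number. Pkm cKO replicate 3 lies far above the other libraries for cornified epithelium (5065 CPM) and skeletal muscle (2054 CPM), and the enamel matrix sums of all Pkm cKO libraries lie below those of the controls.

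Among the 8 factors, 7 had enough reads to be tested, and Isl1 did not. By edgeR's quasi-likelihood test 0 of the 7 reached an adjusted p below 0.05, while 0.552% of all 15930 tested genes did, 0.345% higher and 0.207% lower in Pkm cKO. At an unadjusted p under 0.05, 1 of the 7 passed, Trp63, against 17.5% of all tested genes. DESeq2 called 1 of the 8, Isl1, and 6.62% of the genes it tested, and limma-voom called 0 of the 7. Of the 7 log2 fold changes, 5 were below 0 and 2 above, with a median of -0.18, against a median of 0.01 over all tested genes. Groups that did not overlap were found for 1 of the 7, Trp63, which was lower in Pkm cKO. Among all tested genes 12.2% had non-overlapping groups that were lower in Pkm cKO, and 23.3% had non-overlapping groups in either direction. Without Pkm cKO replicate 3, edgeR called 0 of the 7, against 0.77% of all tested genes, and 6 of the 7 lay below 0. At an unadjusted p under 0.05 there was 1 of the 7 in that fit, against 2980 of all 16230 tested genes. Without Pkm cKO replicate 1, edgeR called 0 of the 7, against 3.92% of all tested genes. At an unadjusted p under 0.05 there were 3 of the 7, against 3620 of all 16330 tested genes.

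**Figure D2:**
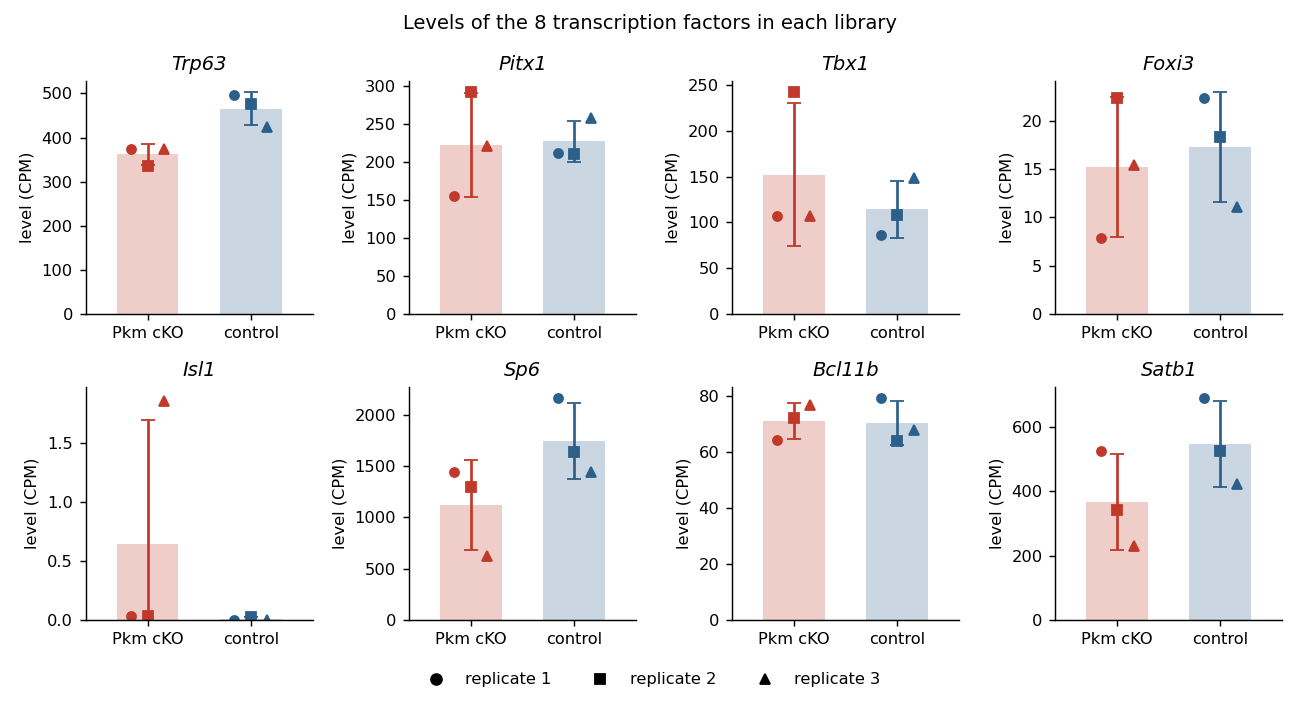
CPM of each factor in the 3 Pkm cKO (red, left) and 3 control (blue, right) libraries, with bars at the mean, error bars of 1 SD, and 1 symbol per replicate number. The groups are apart for Trp63, overlap for the other tested factors, and Isl1 is at 1.86 CPM in Pkm cKO replicate 3 alone.

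To set the factors beside each other, their CPM was divided by the length of all their annotated exons in kilobases. By this level per length Sp6 was the most abundant factor in both groups, at 291 ± 114 CPM per kb in Pkm cKO and 454 ± 97.2 CPM per kb in controls. Pitx1 followed, at 83.8 ± 25.8 CPM per kb in Pkm cKO and 85.4 ± 10.3 CPM per kb in controls. In controls the order went on with Trp63 (55.5), Tbx1 (32.5), Satb1 (28.8), Foxi3 (13.5) and Bcl11b (8.66 CPM per kb). The control ranges of Tbx1 and Satb1 overlapped, as did those of Foxi3 and Bcl11b, so the order within these pairs did not exceed the spread. In Pkm cKO the next levels were Tbx1 (43.3), Trp63 (43.1), Satb1 (19.3), Foxi3 (11.9) and Bcl11b (8.76 CPM per kb). There the ranges of Pitx1 and Tbx1, Tbx1 and Trp63, Satb1 and Foxi3, and Foxi3 and Bcl11b overlapped. Sp6 stayed above every other factor in each of the 6 libraries on this scale. Exons that these cells do not use make a level per length too low, which matters most for Satb1, whose annotated exons cover 19027 bases.

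**Figure D3:**
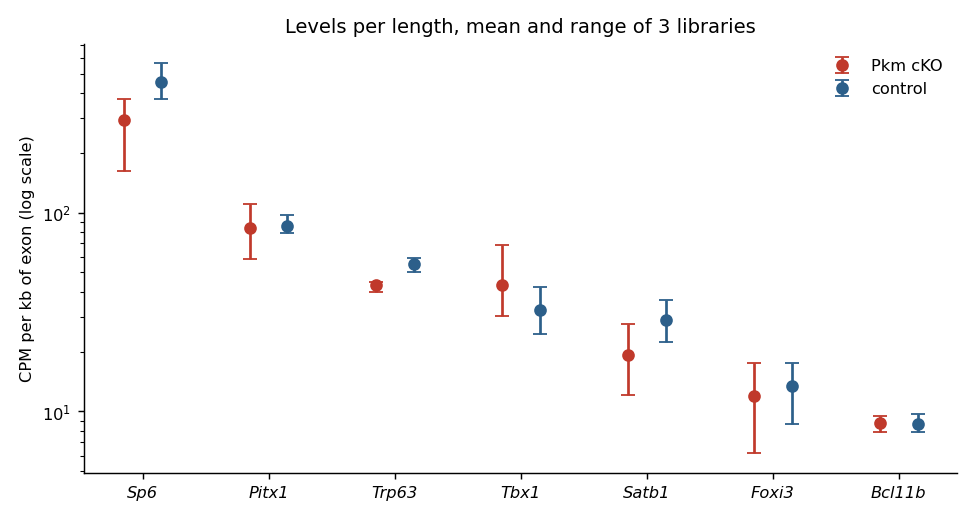
CPM per kb of annotated exon (log axis) of the 7 tested factors in Pkm cKO (red) and control (blue), as the mean and the range of 3 libraries. Sp6 is highest in both groups, at 291 CPM per kb in Pkm cKO and 454 CPM per kb in controls, and Bcl11b is lowest at 8.76 CPM per kb in Pkm cKO and 8.66 CPM per kb in controls.

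Promoter sequences, taken from RefSeq on the build GRCm38.p6, were at hand for 5 of the 8 factors: Bcl11b, Tbx1, Isl1, Foxi3 and Satb1. Shown are the 250 bases before the most upstream annotated start of 3 of them. Isl1 is the factor with almost no reads, Foxi3 the one whose promoter holds a GC box, and Satb1 the most abundant of the 5 in CPM. Capitals mark a GC box (GGGCGG, bound by Sp factors) or a bicoid site (TAATCC, bound by Pitx factors), on either strand.
Isl1: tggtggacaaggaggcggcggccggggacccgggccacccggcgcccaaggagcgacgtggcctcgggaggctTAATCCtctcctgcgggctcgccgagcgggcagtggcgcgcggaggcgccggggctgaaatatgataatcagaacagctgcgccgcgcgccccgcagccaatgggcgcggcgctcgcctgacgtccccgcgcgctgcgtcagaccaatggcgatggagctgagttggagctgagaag
Foxi3: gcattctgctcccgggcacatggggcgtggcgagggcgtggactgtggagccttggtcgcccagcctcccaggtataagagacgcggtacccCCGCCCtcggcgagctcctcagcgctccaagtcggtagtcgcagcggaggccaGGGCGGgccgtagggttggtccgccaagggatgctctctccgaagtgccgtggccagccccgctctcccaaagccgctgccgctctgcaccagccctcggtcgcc
Satb1: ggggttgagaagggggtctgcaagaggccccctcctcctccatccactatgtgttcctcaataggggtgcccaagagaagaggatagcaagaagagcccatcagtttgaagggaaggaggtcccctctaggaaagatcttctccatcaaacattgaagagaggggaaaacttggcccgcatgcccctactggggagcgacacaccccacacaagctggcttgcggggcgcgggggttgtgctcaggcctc
These windows lie at chr13:116309689-116309938 on the minus strand (Isl1), chr6:70956356-70956605 on the plus strand (Foxi3) and chr17:51833291-51833540 on the minus strand (Satb1). The Foxi3 window holds 2 GC boxes, and the other 4 windows hold 0, while 32.7% of 32851 RefSeq windows of this length hold at least 1. The Isl1 window holds 1 bicoid site, found in 6.25% of windows, and the other 4 hold 0. A forkhead site (TGTTTAC), a T-box site (AGGTGTGA) and a TATA box (TATAAA) were searched on both strands and found in 0 of the 5 windows, and they occur in 3.17%, 1.12% and 12.4% of all windows. GC content was 71.2% for Isl1, 70.4% for Foxi3, 58% for Satb1, 54.4% for Tbx1 and 44.8% for Bcl11b, against a median of 52.4% over all windows. These matches describe the letters and do not show binding.

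Trp63 encodes p63, the p53-family factor without which stratified epithelia and teeth do not form. It stood at 375, 335 and 375 CPM in Pkm cKO replicates 1 to 3, against 496, 476 and 423 CPM in control replicates 1 to 3. Every Pkm cKO library was below every control, and the spread within each group was small. The means were 362 ± 22.8 CPM in Pkm cKO and 465 ± 37.7 CPM in controls (SD, n = 3 each). The log2 fold change was -0.36 (SE 0.141, 95% interval -0.68 to -0.05), with an unadjusted p of 0.0269 from edgeR's quasi-likelihood test and an adjusted p of 0.227. It was -0.38 without Pkm cKO replicate 3, so Trp63 was as low without the library that stood apart. When the libraries were scaled to the epithelial markers in place of all genes, a choice made after the data were seen, the log2 fold change of Trp63 was -0.25 (SE 0.221, edgeR adjusted p 0.705). With the libraries scaled this way, 1 of all tested genes had an edgeR adjusted p below 0.05, against 88 with TMM. That scaling used the median over the 18 markers, whose median log2 fold change was -0.05, and not their sum. The sum of epithelial markers was also lower in Pkm cKO, and its part in the level of Trp63 was not tested.

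Sp6, also called epiprofin, is a zinc finger factor of the Sp family. Mice without it form extra teeth that lack enamel. Sp6 stood at 1437, 1297 and 621 CPM in Pkm cKO replicates 1 to 3, against 2159, 1635 and 1437 CPM in control replicates 1 to 3. The groups touched where Pkm cKO replicate 1 met control replicate 3, and Pkm cKO replicate 3 was the lowest library. The means were 1118 ± 436 CPM in Pkm cKO and 1744 ± 373 CPM in controls, a log2 fold change of -0.64 (SE 0.305, 95% interval -1.34 to 0.06, edgeR adjusted p 0.323). It was -0.34 without Pkm cKO replicate 3 (SE 0.200, edgeR adjusted p 0.396). The enamel matrix sum was lowest in the same library.

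The gene Gm11532, a noncoding RNA annotated on the strand opposite Sp6 with exons that overlap it, was looked up after the values were seen. It stood at 10.9, 10.03 and 6.33 CPM in Pkm cKO replicates 1 to 3, against 32.6, 24.3 and 20.5 CPM in control replicates 1 to 3. It fell in Pkm cKO (log2 fold change -1.51, SE 0.269, adjusted p 0.0496 by edgeR), and its groups were far apart. It was below 0 in all 15 alternatives and passed the threshold in 6 of them. The edgeR adjusted p was 0.167 to 0.268 when 1 control was left out, 0.0645 without Pkm cKO replicate 2, and 0.0472 without Pkm cKO replicate 3. It was 0.0511 with DESeq2 size factors, 0.0525 with upper-quartile scaling, 0.0682 without robust estimation and 0.0857 with epithelial marker scaling, and limma-voom gave 0.0730. Since no source used here gives the strand setting of the counts, reads of Sp6 and Gm11532 cannot be told apart where they overlap. Pitx1 and Satb1 also have exons that overlap other annotated genes, none of which is in the count table.

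Satb1 organizes chromatin loops. It is a target of p63 in mouse epidermis and is needed for the polarity of ameloblasts. Satb1 stood at 526, 342 and 231 CPM in Pkm cKO replicates 1 to 3, against 690, 527 and 424 CPM in control replicates 1 to 3. The groups overlapped, since Pkm cKO replicate 1 was above control replicate 3 and level with control replicate 2. The means were 366 ± 149 CPM in Pkm cKO and 547 ± 134 CPM in controls, a log2 fold change of -0.58 (SE 0.301, 95% interval -1.27 to 0.11, edgeR adjusted p 0.365). It was -0.94 (edgeR adjusted p 0.0674) without Pkm cKO replicate 1 and -0.32 (0.518) without Pkm cKO replicate 3, so single libraries set its size.

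Bcl11b, or Ctip2, is a zinc finger factor required for ameloblast differentiation in mice. It stood at 64.2, 72.1 and 76.8 CPM in Pkm cKO replicates 1 to 3, against 79.1, 64.0 and 67.7 CPM in control replicates 1 to 3. All 6 libraries lay in one narrow range. The log2 fold change was 0.02 (SE 0.152, edgeR adjusted p 0.970), and the 95% interval of -0.32 to 0.35 bounds how large a difference these libraries allow. Its sign turned to below 0 without Pkm cKO replicate 3 (-0.03). Satb1 and Bcl11b are also factors of T cells, and the T cell markers were close to 0. Of 10 listed, 6 were in the table, and they summed to 2.55 to 5.49 CPM in Pkm cKO and 2.29 to 3.00 CPM in controls, mostly of Lck. Cd3e, which defines T cells, had at most 0.03 CPM in any library.

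Pitx1 is a bicoid-type homeobox factor of the oral and dental epithelium. It stood at 155, 292 and 221 CPM in Pkm cKO replicates 1 to 3, against 212, 210 and 258 CPM in control replicates 1 to 3. The Pkm cKO libraries held both the lowest and the highest value, so the controls lay inside their range. The log2 fold change was -0.03 (SE 0.219, 95% interval -0.51 to 0.46, edgeR adjusted p 0.964), and without Pkm cKO replicate 1 it was 0.17.

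Tbx1, a T-box factor that the incisor needs to keep making ameloblasts, stood at 107, 242 and 107 CPM in Pkm cKO replicates 1 to 3, against 86.1, 108 and 148 CPM in control replicates 1 to 3. One library, Pkm cKO replicate 2, was high and the other 2 lay among the controls. The means were 152 ± 78.2 CPM in Pkm cKO and 114 ± 31.3 CPM in controls, a log2 fold change of 0.41 (SE 0.362, 95% interval -0.43 to 1.26, edgeR adjusted p 0.606). It was -0.09 without Pkm cKO replicate 2. Tbx1 is also a factor of head muscle progenitors. Skeletal muscle markers summed to 65.2, 15.2 and 2054 CPM in Pkm cKO replicates 1 to 3 and to at most 4.06 CPM in controls, and their part in the level of Tbx1 was not tested.

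**Figure D4:**
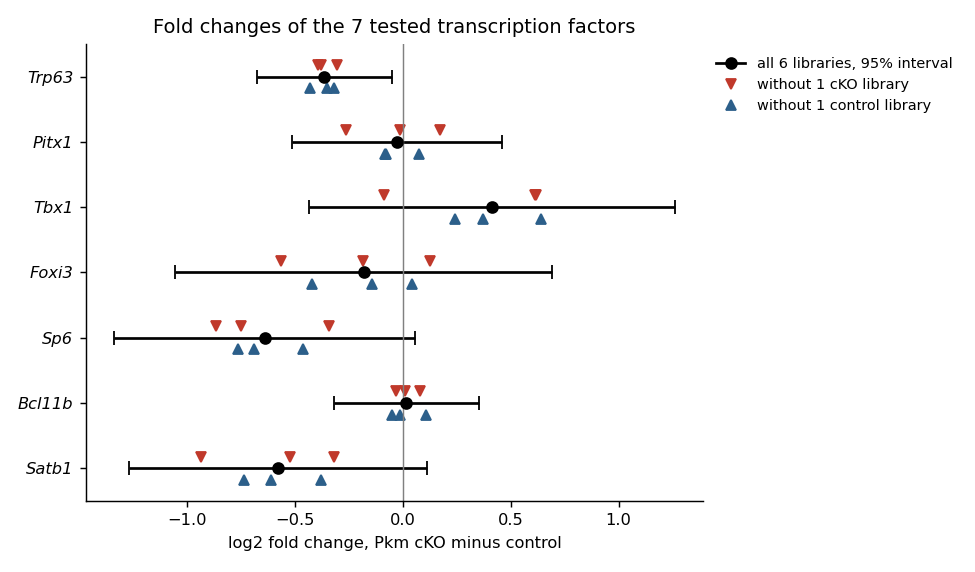
Log2 fold changes (Pkm cKO minus control) of the 7 tested factors from all 6 libraries with 95% intervals (black), and with 1 Pkm cKO library (red) or 1 control library (blue) left out. Trp63, Sp6 and Satb1 stay below 0 with any 1 library left out, whereas Pitx1, Tbx1, Foxi3 and Bcl11b lie on both sides of 0.

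Foxi3 is a forkhead factor that acts downstream of ectodysplasin, and dogs that carry a mutated copy lack hair and some teeth. It stood at 7.88, 22.4 and 15.4 CPM in Pkm cKO replicates 1 to 3, against 22.4, 18.4 and 11.1 CPM in control replicates 1 to 3. The highest libraries of both groups were level and the lowest was Pkm cKO replicate 1. The log2 fold change was -0.18 (SE 0.386, edgeR adjusted p 0.846), with a wide 95% interval of -1.06 to 0.69. It was 0.13 without Pkm cKO replicate 1.

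Isl1 is a LIM-homeobox factor that in the mouse marks the epithelium of early incisors. It had 1, 1 and 75 reads in Pkm cKO replicates 1 to 3, and 0, 1 and 0 reads in control replicates 1 to 3. The reads of Isl1 came almost wholly from Pkm cKO replicate 3, at 1.86 CPM, and it was too low to be tested with the other factors. With a floor of 3 counts, a count of 0 allows a level of up to 0.0817 CPM in control replicate 1 and 0.0778 CPM in control replicate 3, which covers counting error only. DESeq2, which keeps genes with few reads, gave an adjusted p of 0.0221, and edgeR without a filter gave 0.285. Without Pkm cKO replicate 3, both groups were under the floor, so no fold is given. The markers of cornified epithelium and of muscle were high in the same library, and their part in the Isl1 reads was not tested.

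The factors were next set beside 26 other transcription factors of tooth and surface epithelium. Of these 26, all were tested and 0 passed the threshold by edgeR's quasi-likelihood test, with 8 at an unadjusted p under 0.05. DESeq2 called 3 of the 26 (Foxo1, Nkx2-3 and Sox21), and limma-voom called 0. The shares over all genes were 17.5% at that unadjusted p and 6.62% called by DESeq2. The list had 19 log2 fold changes above 0 and 7 below, with a median of 0.22. Over all 1144 tested genes to which the table gives a transcription factor family, 5 rose (Foxf2, Jdp2, Six2, Spi1 and Zfp467, named here after their values were seen) and 0 fell by edgeR, with 172 at an unadjusted p under 0.05 and a median of -0.02.

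The lowest p of these 26 belonged to Foxo1, a forkhead factor that ameloblasts need for enamel maturation in mice. Foxo1 stood at 78.9, 90.8 and 88.8 CPM in Pkm cKO replicates 1 to 3, against 211, 148 and 119 CPM in control replicates 1 to 3 (log2 fold change -0.89, SE 0.206, edgeR adjusted p 0.0849). Sox21, a SOX factor of the enamel-forming epithelium, stood at 54.3, 29.5 and 18.3 CPM in Pkm cKO, against 134, 106 and 81.4 CPM in controls (log2 fold change -1.65, SE 0.399, edgeR adjusted p 0.113). For both, every Pkm cKO library was below every control, and without Pkm cKO replicate 3 the log2 fold changes were -0.90 for Foxo1 and -1.34 for Sox21. Of the 26 factors, 4 were lower in Pkm cKO with no overlap and 5 were higher, against 12.2% and 11.2% of all tested genes. Nkx2-3, which encodes a homeobox factor, averaged 14.6 ± 5.03 CPM in Pkm cKO and 6.65 ± 2.09 CPM in controls (log2 fold change 1.14, SE 0.335, edgeR adjusted p 0.132). Elf5, an ETS factor of glandular epithelium, averaged 1.54 ± 1.27 CPM in Pkm cKO and 0.397 ± 0.116 CPM in controls. Its log2 fold change was 1.95 with all libraries and 1.03 without Pkm cKO replicate 3. Nkx2-3 and Elf5 both stood higher in every Pkm cKO library than in any control.

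**Figure D5:**
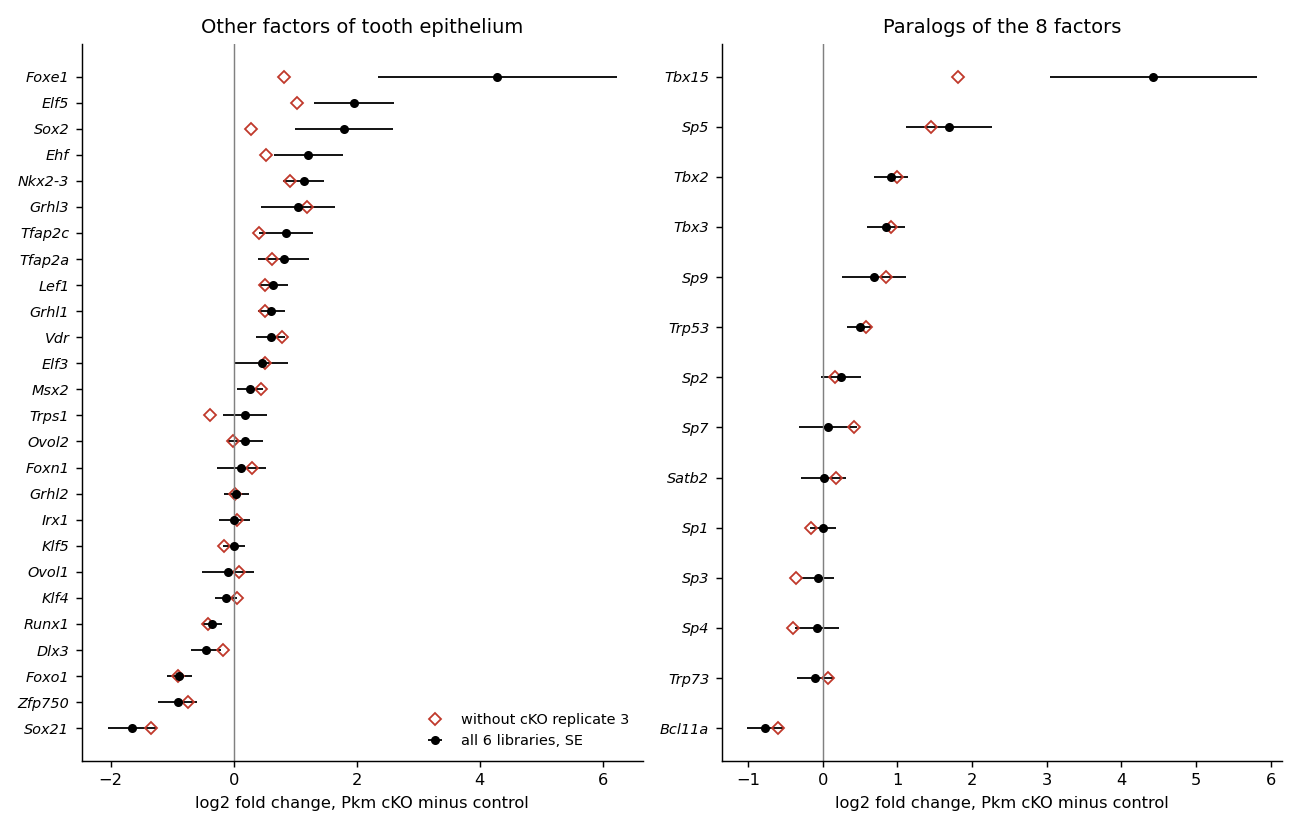
Log2 fold changes (Pkm cKO minus control) of the 26 other epithelial factors (left) and the 14 tested paralogs (right), with all 6 libraries (black, bars of 1 SE) and without Pkm cKO replicate 3 (open red diamonds). Sox21, Zfp750 and Foxo1 are lowest on the left and Bcl11a on the right, and the highest values, 4.29 for Foxe1 and 4.43 for Tbx15, are 0.82 and 1.81 without that library.

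Close relatives of the 8 factors were counted to see whether a family moved as a whole. Of 24 paralogs, 21 were in the table and 14 were tested. By edgeR's quasi-likelihood test 0 of the 14 passed, 6 had an unadjusted p under 0.05, DESeq2 called 3 (Tbx2, Tbx3 and Tbx15) and limma-voom called 0. Among all genes 17.5% had an unadjusted p under 0.05 by edgeR, and DESeq2 called 6.62%. Tbx15 stood at 1.81, 0.959 and 22.9 CPM in Pkm cKO replicates 1 to 3, against 0.381, 0.337 and 0.467 CPM in control replicates 1 to 3, so its level was far higher in Pkm cKO replicate 3 than in any other library. The median log2 fold change was 0.15, with 10 above 0 and 4 below. Of the 14 paralogs, 5 were higher in Pkm cKO with no overlap and 1 was lower, against 11.2% and 12.2% of all tested genes. The T-box genes Tbx2 and Tbx3, repressors of the cell cycle inhibitor genes, both stood higher in every Pkm cKO library than in any control. Tbx2 averaged 54.5 ± 14.8 CPM in Pkm cKO and 28.9 ± 5.12 CPM in controls (log2 fold change 0.91, SE 0.225, edgeR adjusted p 0.0954). Tbx3 averaged 24.6 ± 7.12 CPM in Pkm cKO and 13.7 ± 2.76 CPM in controls (log2 fold change 0.85, SE 0.257, edgeR adjusted p 0.140).

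Bcl11a, the zinc finger paralog of Bcl11b, stood at 77.9, 67.1 and 49.5 CPM in Pkm cKO replicates 1 to 3, against 146, 104 and 81.6 CPM in control replicates 1 to 3 (log2 fold change -0.77, SE 0.238, edgeR adjusted p 0.148). Every Pkm cKO library of Bcl11a was below every control, and it was the 1 of the 14 tested paralogs for which this was so. Trp53, the relative of Trp63 that guards the genome, averaged 114 ± 22.7 CPM in Pkm cKO and 81.2 ± 5.91 CPM in controls (log2 fold change 0.49, SE 0.169, adjusted p 0.180 by edgeR), with groups that did not overlap.

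Genes known to depend on Trp63 were then read from the same fit. Of 17 such genes, 0 passed the threshold by edgeR's quasi-likelihood test, 6 had an unadjusted p under 0.05, DESeq2 called 1 (Krt14) and limma-voom called 0, where 17.5% of all genes had such an unadjusted p and DESeq2 called 6.62%. With the libraries scaled to the epithelial markers, edgeR gave 2 of these targets an unadjusted p under 0.05, beside 2160 of all 15930 tested genes. The sum of epithelial markers was also lower in Pkm cKO, and its part in the levels of this list was not tested. The median log2 fold change was -0.34, with 12 below 0 and 5 above. Groups that did not overlap and were lower in Pkm cKO were found for 7 of the 17, against 12.2% of all tested genes. Krt14, the basal keratin and a direct p63 target, stood at 2002, 1423 and 1362 CPM in Pkm cKO replicates 1 to 3, against 3281, 2596 and 2243 CPM in control replicates 1 to 3. All Pkm cKO libraries were below all controls (log2 fold change -0.76, SE 0.202, edgeR adjusted p 0.108). Fras1, which anchors epithelium to its basement membrane, averaged 814 ± 203 CPM in Pkm cKO and 1211 ± 125 CPM in controls (log2 fold change -0.57, SE 0.191, edgeR adjusted p 0.170). Krt5, the partner of Krt14, averaged 5216 CPM in Pkm cKO and 7018 CPM in controls (-0.43 on the log2 scale, SE 0.151, edgeR adjusted p 0.189). Zfp750, a factor of epidermal differentiation, averaged 86.0 ± 41.5 CPM in Pkm cKO and 162 ± 31.4 CPM in controls, with groups that overlapped. Krt5, Krt14 and Dsp are also on the list of epithelial markers, and Dlx3 and Zfp750 on that of the other epithelial factors, so the lists are not independent.

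Of 4 genes reported to respond to Sp6, 0 passed by edgeR, 2 had an unadjusted p under 0.05, DESeq2 called 1 (Fst) and limma-voom called 0, with 17.5% of all genes at that unadjusted p and 6.62% called by DESeq2. The list's median log2 fold change was -1.11, with 3 below 0. Ambn, which encodes the enamel protein ameloblastin, stood at 744, 164 and 62.1 CPM in Pkm cKO replicates 1 to 3, against 2128, 2364 and 808 CPM in control replicates 1 to 3. Amtn, the enamel surface protein gene amelotin, had 0.208 ± 0.0211 CPM in Pkm cKO and 0.756 ± 0.0719 CPM in controls. The groups did not overlap for either gene, against 12.2% of all tested genes that were lower with no overlap, and the levels of Amtn rest on few reads. The log2 fold change was -2.45 for Ambn (SE 1.11, edgeR adjusted p 0.355) and -1.84 for Amtn (SE 0.528, edgeR adjusted p 0.127). Both are also among the 7 enamel matrix markers, and Fst is also on the list of Foxi3 inputs, so these lists are not independent. Rock1, a kinase of the cell skeleton, averaged 37.8 ± 10.5 CPM in Pkm cKO and 49.2 ± 6.48 CPM in controls. Fst, which encodes the activin antagonist follistatin and is held down by Sp6 in cell culture, averaged 12.9 ± 8.93 CPM in Pkm cKO and 5.45 ± 1.33 CPM in controls. Its log2 fold change was 1.24, and 0.52 without Pkm cKO replicate 3.

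Ectodysplasin and activin signals act upstream of Foxi3 in the mouse. Of 9 genes of these inputs, 0 passed by edgeR, 4 had an unadjusted p under 0.05, DESeq2 called 3 (Edar, Fst and Inhba) and limma-voom called 0, beside 17.5% of all genes at that unadjusted p and 6.62% called by DESeq2. The median log2 fold change was 0.50, with 7 above 0, and it was 0.18 without Pkm cKO replicate 3. Edar, the ectodysplasin receptor, stood at 9.40, 11.3 and 22.1 CPM in Pkm cKO replicates 1 to 3, against 4.85, 6.47 and 7.52 CPM in control replicates 1 to 3. Every Pkm cKO library of Edar was above every control (1.19 on the log2 scale, SE 0.344, adjusted p 0.129 by edgeR), while it was 0.73 without Pkm cKO replicate 3. Inhba, the activin A subunit, averaged 8.30 ± 4.20 CPM in Pkm cKO and 2.46 ± 0.890 CPM in controls (log2 fold change 1.75, SE 0.473, edgeR adjusted p 0.113). Edar and Inhba were the 2 of the 9 genes that were higher with no overlap, against 11.2% of all tested genes. Acvr1b, an activin receptor, averaged 116 ± 17.0 CPM in Pkm cKO and 156 ± 26.0 CPM in controls, with overlapping groups. Foxi3 itself, as given above, had a log2 fold change of -0.18.

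For each tested factor, the genes whose centred log2 CPM stayed closest to its own over the 6 libraries were listed, as a description. The distance is the root-mean-square difference in log2 units. Pitx1 was closest to Hs6st1, a heparan sulfate sulfotransferase, at 0.0300, with Dnph1 and Mpst next. Trp63 was closest to the membrane protease gene Adam10 at 0.0256, then Pigk and Gnpnat1. Both distances were small beside the factors' own departures from their means, which were 0.284 for Pitx1 and 0.201 for Trp63. Sp6 was closest to Ano1, a chloride channel, at 0.0925, then 1700052K11Rik and Heyl. Satb1 was closest to Zfp113 at 0.0629, then to Vldlr, a lipoprotein receptor, and 0610009B22Rik. None of the 7 tested factors was among the 3 nearest genes of another, and Isl1 was too low to enter the search. Bcl11b was closest to Dnajc27, Extl3 and Fubp3 (from 0.0370), Tbx1 to Fam131c, Adap1 and the glycolytic gene Tpi1 (from 0.0923), and Foxi3 to Lss, Cracd and Pank1 (from 0.159).

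The remaining cell type markers are given as sums. Those of odontoblasts and osteoblasts, led by Dspp, Alpl and Dmp1, summed to 1016 to 4671 CPM in Pkm cKO and 3370 to 6367 CPM in controls. Neuron and ganglion markers, mostly Tubb3 and Stmn2, summed to 99.7 to 283 CPM in Pkm cKO and 259 to 421 CPM in controls. Endothelial markers, led by Cdh5, Pecam1 and Tie1, summed to 359 to 640 CPM in Pkm cKO and 342 to 415 CPM in controls, with the highest sum in Pkm cKO replicate 3. The part of these cells in the levels of the 8 factors was not tested.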

How the data were processed

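The 8 factors and the gene lists were chosen with earlier results of these data known, and 2 genes of the lists are not reported here. RNA-seq counts per gene, whole numbers, were deposited by the authors for the 6 libraries. Tools listed in the submitters' processing notes are fastp and HISAT2, with mm39 as the build. No source used here names the counter, its strand setting or the annotation. Groups and replicate numbers follow the labels; the replicates are described there as biological, with no animals named. No libraries were duplicates (chi-square per gene at least 28.2).

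Genes passing filterByExpr were scaled by TMM and compared with edgeR 4.0.16 in R 4.3.3 (glmQLFit with robust estimation, glmQLFTest, two-sided, Benjamini-Hochberg over all 15930 tested genes). Standard errors were derived from the F statistic. DESeq2 1.42.0 and limma-voom (limma 3.58.1) were alternatives. Total counts of 30588350 to 39415700 made counting error small for factors other than Isl1. Named were all 8 factors, up to 4 genes with the lowest p of each related list, up to 3 of the highest CPM of each of the 10 cell type lists, the 3 nearest genes of each factor (among genes of at least 5 CPM, prior count 2), and Pkm. Named outside this rule, after their values were seen, were Gm11532, Odam, C1qc, Cd3e, Tbx15, Foxe1, Dsp, Dlx3 and the 5 called genes with a transcription factor family. Exon lengths came from GENCODE M21 and promoters from RefSeq, both on GRCm38, while the counts are on mm39. The procedure was tested on simulated counts.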

Additional observations from a re-analysis of the deposited data

How the results depend on the processing

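Over the 15 alternatives, 0 of the 7 tested factors passed the threshold under any of them. The 1 factor past it with DESeq2 was Isl1, which was not tested otherwise except without a filter. Trp63 (log2 fold change -0.43 to -0.25), Sp6 (-0.87 to -0.34) and Satb1 (-0.94 to -0.32) stayed below 0 in all 15. The value for Pitx1 was above 0 with upper-quartile scaling (0.0125), with the epithelial marker scaling added after the data were seen (0.0269), without Pkm cKO replicate 1 (0.17) and without control replicate 3 (0.07), and lowest without Pkm cKO replicate 2 (-0.27). That of Foxi3 was above 0 without Pkm cKO replicate 1 (0.13) and without control replicate 1 (0.04), and lowest without Pkm cKO replicate 2 (-0.57). Tbx1 was below 0 without Pkm cKO replicate 2 (-0.0872) and highest without control replicate 3 (0.64). Bcl11b was below 0 without Pkm cKO replicate 3 (-0.03), control replicate 2 (-0.0522) or control replicate 3 (-0.01), and among libraries left out it was highest without control replicate 1 (0.11). The causes were not tested. Of all genes, 88 passed; the count was 55 with DESeq2 size factors in edgeR, 518 without a filter, 1128 with DESeq2, 2 with limma-voom and 2 without robust estimation. Leaving out 1 library gave 0 to 640 genes. The 0 came without any 1 control (edgeR, with 1532 to 2495 genes at an unadjusted p under 0.05), and the 640 without Pkm cKO replicate 1. With the replicate number as a block, 708 genes passed and 0 factors. Same-numbered libraries deviated together with r = 0.235, 0.0150 and 0.215 for numbers 1 to 3. Libraries of unlike number gave r of -0.278 to 0.0703, and cKO replicate 2 correlated best with control replicate 3 (0.0240). These values do not settle whether the numbers mark pairs. Since the labels state no pairs, the main fit did not take the numbers as pairs. Under the block the adjusted p was 0.0855 for Sp6, 0.0662 for Satb1 and 0.252 for Trp63. In the related lists edgeR called 0 in the main fit. The block, with 708 of all 15930 tested genes past the threshold, called 5 of the 26 epithelial factors and 3 of the 14 paralogs. It also called 2 of the 17 Trp63 targets and 1 of the 9 Foxi3 inputs. Without a filter the counts of these lists were 2, 1, 1 and 2, beside 518 of the 24959 genes of the table. Without Pkm cKO replicate 1 they were 2, 1, 2 and 1, beside 3.92% of all tested genes. Without Pkm cKO replicate 2, 1 epithelial factor (Zfp750, also a Trp63 target) and 1 Foxi3 input (Inhba) passed, beside 186 of all tested genes. Depth limits only Isl1 among the factors.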
